A study of Mus musculus with 37 samples.

Results

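Leptin, the product of the gene Lep, was followed across whole mammary glands of mice whose calories were restricted, that had a running wheel, or both, or neither. The gene was taken as every probe set of the array that carries the symbol Lep, which gave 1 probe set (1422582_at) of 22690, measured on all 37 arrays of the study, and 1 of 12393 genes that the array names. All animals were female C57BL/6 mice, an inbred laboratory strain, aged 9 weeks at the start, with a follow-up of 6 weeks. The 4 groups were restricted mice with a wheel (CR+EX, 9 animals), restricted mice without one (CR, 9), freely fed mice with a wheel (AL+EX, 9) and freely fed mice without one (AL, 10, the controls). Restricted mice received 70% of the calories of AL mice and the same amount of every other nutrient. RNA of each animal came from its left and right thoracic glands, pooled, and each animal had 1 array. The p-values below therefore measure the spread between animals.

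Leptin is a hormone that white fat cells make and secrete, and in the mammary gland those cells form the fat pad around the ducts. It acts through the leptin receptor (Lepr), whose partner kinase JAK2 phosphorylates the transcription factor STAT3, and SOCS3 and the phosphatase PTP1B (gene Ptpn1) damp the signal. Leptin in the blood is known to follow the fat mass and to fall when food is short.

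The bases just before the start of Lep are shown because factors that bind such motifs were among the genes measured beside it. They are the 120 bases upstream of the start site on the plus strand, chr6:29060101-29060220, from RefSeq on GRCm38.p6, with motif matches in capitals.
Lep promoter: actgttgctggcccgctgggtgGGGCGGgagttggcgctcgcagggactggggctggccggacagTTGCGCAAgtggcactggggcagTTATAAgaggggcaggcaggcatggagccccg
Both strands were searched for GGGCGG, known as the GC box and bound by Sp1, for TTGCGCAA, a palindrome bound by CCAAT/enhancer binding proteins, and for TATAA, the core of the box where the transcription machinery assembles. GGGCGG began 98 bases before the start site and TTGCGCAA began 55 bases before it. TATAA matched on both strands, overlapping as TTATAA, from 31 bases on the plus strand and 32 bases on the minus strand. Of 32851 promoter windows of the same length, 27 (0.0822%) held TTGCGCAA, 3892 (11.8%) held TATAA and 8698 (26.5%) held GGGCGG. A match of letters is a description of this window and says nothing of binding in these glands.

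Lep was low in both restricted groups, intermediate in AL+EX and high in AL. Its signal, in the authors' linear units, ran from 34.7 over a median of 171.6 to 916.6 in CR+EX and from 15.3 over a median of 195 to 423.4 in CR. In AL+EX it ran from 77.2 over a median of 398 to 996.8, and in AL from 203.4 over a median of 978.7 to 1613.2. The groups overlapped, but none of the 18 restricted animals reached the AL median, and the 5 animals above 1000 were all AL. Of the other groups, 6 CR+EX, 5 CR and 2 AL+EX animals lay below the lowest AL animal, and 6 of 10 AL animals lay above the highest CR animal. Above a signal of 500 were 2 of 18 restricted and 9 of 19 unrestricted animals.

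**Figure D1:**
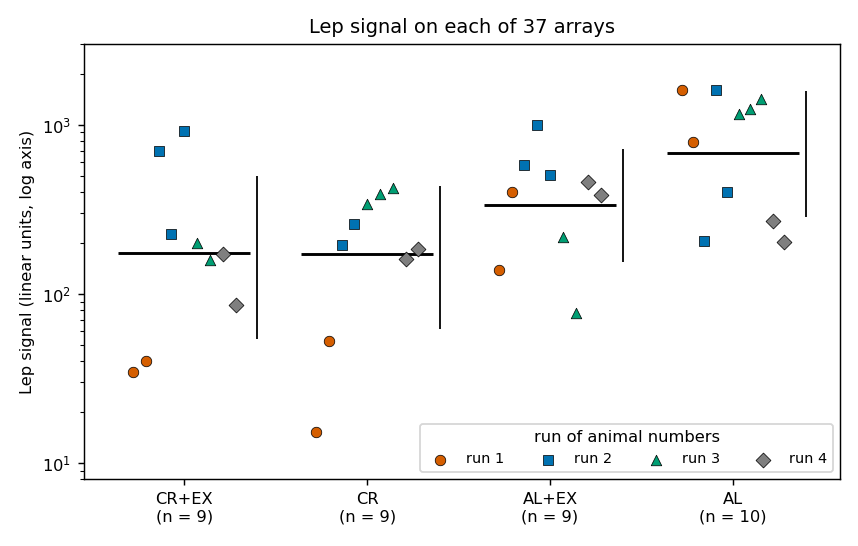
Lep signal of each of 37 animals (linear units on a log axis) by group, with the run of animal numbers as colour and shape. Horizontal lines are the signal at the mean log2 value (174 in CR+EX, 171 in CR, 336 in AL+EX and 679 in AL) and vertical lines span 1 SD of the log2 values to either side; the AL points reach highest and the lowest points are run 1 animals of both restricted groups.

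On the log2(signal + 16) scale the means were 7.57 ± 1.44 in CR+EX (SD, n = 9), 7.55 ± 1.26 in CR (SD, n = 9), 8.46 ± 1.06 in AL+EX (SD, n = 9) and 9.44 ± 1.21 in AL (SD, n = 10). In order of level, CR and CR+EX did not differ beyond their spread, nor did CR+EX and AL+EX, nor AL+EX and AL. AL stood above both restricted groups in single-gene tests, but neither pair passed in limma over all genes. The gene was chosen with earlier results of these data known, which the single-gene p-values do not take into account. The spread within groups was wide. The highest animal had 26.4 times the signal of the lowest in CR+EX, 27.7 times in CR, 12.9 times in AL+EX and 7.93 times in AL, and over all animals the span was 105-fold. The residual SD of Lep was 1.25 on the log2 scale, against a median of 0.339 over the 9294 genes tested, and was the rank 38 value from the top. Among the 2428 genes whose mean lay within 0.5 of that of Lep, it ranked 14 and the median SD was 0.332. Some of that spread lies near the dim end of the arrays: 3 CR+EX, 2 CR, 1 AL+EX and 0 AL animals had a Lep value under 6.71 on the log2 scale, the mean level below which genes were left out of the tests.

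The effect of restriction averaged over both wheel states asks what fewer calories did whether or not a wheel was present. Lep fell 2.62-fold (95% interval 1.53 to 4.49), a log2 difference of -1.39 ± 0.38 (SE, 18 restricted against 19 unrestricted animals), with an adjusted p of 0.018 in limma. It was the rank 4 fall by size, but rank 430 by p, beside 813 of 9294 genes called in that contrast (8.75%), of which 424 were lower (4.56%) and 389 higher (4.19%). As a single value, the difference had a permutation p of 0.0019 with labels exchanged within wheel states (100000 draws, two-sided). Every one of the 37 fits that left out 1 animal kept the call, with differences from -1.53 to -1.23. Of 23 other settings, 18 kept it and 5 did not, and none turned the direction. All 5 left out arrays, as did the fits without run 2 or run 4 (runs of animal numbers, described below), which kept it.

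**Figure D2:**
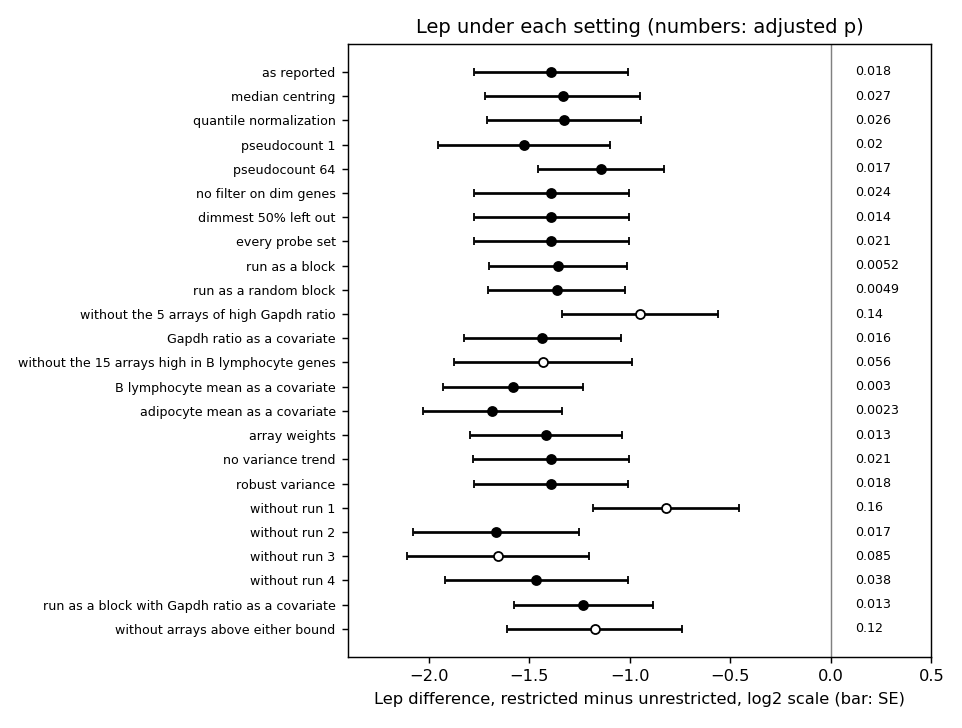
Averaged restriction difference of Lep (restricted minus unrestricted, log2 scale, bars of 1 SE) as reported and under 23 other settings, with the adjusted p of limma at the right. Filled points passed an adjusted p of 0.05; the differences run from -1.68 to -0.82 and all lie below 0.

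In the separate pairs, Lep was 3.72-fold lower in CR than in AL (95% interval 1.75 to 7.88; log2 difference -1.89 ± 0.54, SE) and 3.65-fold lower in CR+EX than in AL (1.72 to 7.74; -1.87 ± 0.54). Neither passed limma's threshold over all genes, with adjusted p of 0.074 and 0.088, although Lep was the second largest and the third largest fall of these contrasts. In CR minus AL 41 genes (0.441%) were called, and in CR+EX minus AL 58 genes (0.624%). In an exact permutation test of Lep alone, two-sided, the p was 0.0037 for CR against AL and 0.0083 for CR+EX against AL, or 0.022 and 0.025 adjusted over the 6 pairs of groups. Both pairs share the AL animals. With the run of animal numbers as a block both passed in limma, with adjusted p of 0.019 and 0.026. With the 3' to 5' ratio of the Gapdh control probe sets, a measure of RNA quality, added to that block neither did, at -1.45 (adjusted p = 0.15) for CR minus AL and -1.64 (adjusted p = 0.051) for CR+EX minus AL.

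Against AL+EX the differences were smaller and did not pass. CR+EX and AL+EX both had a wheel, whereas CR minus AL+EX differs in both diet and wheel. CR+EX minus AL+EX was -0.89 ± 0.55 (SE; 95% interval -2.0 to 0.22; adjusted p = 0.46 in limma, where 153 genes or 1.65% were called; exact permutation p = 0.15). CR minus AL+EX was -0.91 ± 0.55 (-2.03 to 0.20; adjusted p = 0.43, with 183 genes or 1.97% called). Both intervals include falls of the size seen against AL. The interaction of restriction and wheel, which tests whether restriction lowered Lep by a different amount with a wheel, was 1.01 ± 0.77 (SE; -0.55 to 2.56; adjusted p = 1.00).

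The wheel alone gave no difference that passed, although Lep was the rank 3 fall by size in AL+EX minus AL as well. A rank by size takes no account of the spread, which was wide for Lep. AL+EX minus AL was -0.98 ± 0.54 (SE) on the log2 scale, with a 95% interval of -2.06 to 0.10, an adjusted p of 0.75 and an exact permutation p of 0.079 (0.16 over the 6 pairs). Under restriction, CR+EX minus CR was 0.03 ± 0.55 (SE; -1.09 to 1.14; adjusted p = 1.00), an interval that holds more than 2-fold changes either way. Averaged over diets the wheel difference was -0.48 ± 0.38 (SE; -1.25 to 0.30; adjusted p = 1.00). limma called 0 genes (0%) in each of these 3 contrasts and in the interaction, where 600, 83, 266 and 295 genes had an unadjusted p under 0.05.

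The titles carry animal numbers, and these were divided at every 24 numbers into 4 runs of 8, 11, 10 and 8 animals (2 to 22, 26 to 48, 50 to 70 and, after a wide gap, run 4), each with all 4 groups. The labels do not call the runs batches, and within a run the numbers rise with the group, so place in the run and group cannot be told apart. In run 1 the signals were 34.7 and 40.3 in CR+EX, 15.3 and 52.5 in CR, 139.1 and 398 in AL+EX, and 1613.2 and 794.3 in AL. All 4 restricted animals of run 1 thus lay below its lowest unrestricted one. In run 2 they were 694.6, 224.4 and 916.6 in CR+EX, 195 and 259.5 in CR, 576.5, 996.8 and 507.3 in AL+EX, and 204.2, 1596.8 and 402.3 in AL. The highest CR+EX animals belonged to this run, and its groups overlapped. In run 3 they were 200.8 and 158.5 in CR+EX, 341.8, 387.9 and 423.4 in CR, 217.4 and 77.2 in AL+EX, and 1163.1, 1231.4 and 1424.9 in AL. Here the AL animals stood above all others, and the AL+EX animals lay within or below the range of the restricted ones. In run 4 they were 171.6 and 85.5 in CR+EX, 159.8 and 184.1 in CR, 456.1 and 385.2 in AL+EX, and 270.3 and 203.4 in AL. AL+EX was the highest group of run 4.

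The averaged restriction difference was below 0 in each run, at -3.44, -0.73, -0.64 and -1.04 on the log2 scale in runs 1 to 4. Without run 1 it was -0.82 (limma p = 0.032 unadjusted and 0.16 adjusted). Without run 3 it was -1.66 (limma p = 0.0010 unadjusted and 0.085 adjusted). Neither passed the threshold over all genes. With labels exchanged within runs as well as wheel states the permutation p was 0.00014. CR minus AL was -4.63, -1.14, -1.69 and -0.42, and CR+EX minus AL+EX was -2.25, -0.33, 0.40 and -1.66, so the second pair changed sign in run 3. The wheel difference averaged over diets was -0.99, 0.76, -2.08 and 0.18, with both signs. A test of unequal restriction effects over the 4 runs was added after the data were seen. For Lep it gave F = 4.60 with 3 and 27 degrees of freedom. The limma p was 0.0085 unadjusted and 0.14 adjusted over all genes. In that test 92 genes or 0.99% were called, and 1643 had an unadjusted p under 0.05. The same test for the wheel gave Lep an F of 5.12 and a limma p of 0.0051 unadjusted and 0.97 adjusted. There 0% of genes were called and 387 had an unadjusted p under 0.05.

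**Figure D3:**
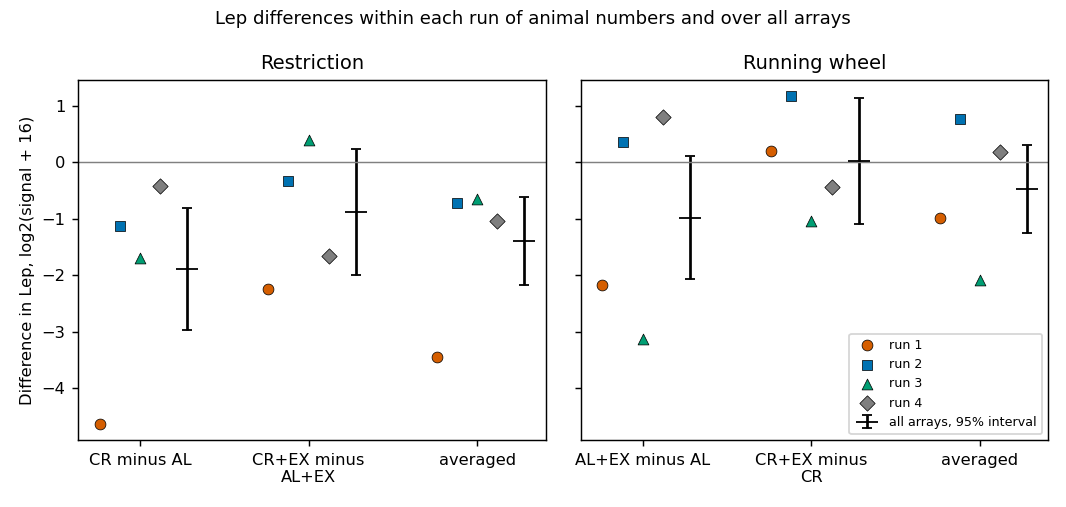
Lep difference on the log2(signal + 16) scale for restriction (left) and the wheel (right), within each run of animal numbers (coloured points, 2 or 3 animals per group) and over all 37 arrays (black, with the 95% interval of the limma fit). The averaged restriction points all lie below 0 and the wheel points lie on both sides of it.

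RNA quality and cell content moved with some of the arrays. The ratio of the 3' to the 5' control probe sets of Gapdh, which grows as RNA is degraded, was above 2 on 5 arrays (2.37 to 7.03), 2 CR+EX animals and 3 AL animals, and lay between 0.75 and 1.49 on the others. Those 2 CR+EX animals had the lowest Lep of their group, and the 3 AL animals had signals of 794.3, 1424.9 and 1613.2. Without the 5 arrays the averaged restriction difference was -0.95 (adjusted p = 0.14). With the log2 ratio as a covariate the adjusted p was 0.016. Over 37 arrays the log2 ratio and Lep had r = 0.047 (permutation p = 0.78, adjusted over 3 measures 0.78) and rho = 0.057 (permutation p = 0.74, adjusted 0.74). Within runs 1 to 4, r was 0.44, 0.43, 0.43 and -0.027, and without the 2 arrays farthest from the median it was 0.065. Within groups the sign differed, with r of -0.70 in CR+EX, -0.72 in CR, -0.21 in AL+EX and 0.43 in AL. The same ratio for the actin control probe sets ran from 0.75 to 2.59. It was highest in the AL animals 54, 2, 4 and 50, at 2.59, 2.12, 1.98 and 1.96. Their Lep signals were 1424.9, 1613.2, 794.3 and 1163.1. Next came the AL+EX animals 58 and 56, at 1.69 and 1.68, with Lep signals of 77.2 and 217.4. The part of RNA quality in the Lep difference was not tested beyond these values.

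Genes of B lymphocytes divided the arrays. The mean of the 9 B lymphocyte markers tested was 6.27 to 6.97 on the log2 scale on 22 arrays and 7.95 to 10.3 on 15 arrays (3 CR+EX, 4 CR, 4 AL+EX and 4 AL animals, among them all 8 of run 4). By median, Lep was lower on these 15 arrays in every group, a difference that was not tested: the median signal was 85.5 against 212.6 on the other arrays in CR+EX, 171.95 against 259.5 in CR, 301.3 against 507.3 in AL+EX and 237.25 against 1197.25 in AL. Without the 15 arrays the averaged restriction difference was -1.43 (adjusted p = 0.056), and without the arrays above either bound, this or the Gapdh one, it was -1.18 (adjusted p = 0.12). With the B lymphocyte mean as a covariate CR minus AL was -2.04 (adjusted p = 0.027). Since the arrays fall into 2 sets by this measure, r was taken within each set. Within the 22 arrays r between that mean and Lep was -0.068, and within the 15 it was 0.17. The part of lymphoid content in the result was not tested further.

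Markers of fat cells were bright in all groups. The mean of the 11 adipocyte markers tested of 14 listed (Adipoq and Fabp4 among them) was 12.5 ± 0.38 in CR+EX, 12.6 ± 0.36 in CR, 12.3 ± 0.16 in AL+EX and 12.5 ± 0.29 in AL on the log2 scale (SD, n = 9, 9, 9 and 10). No marker passed the test in the averaged restriction contrast, and the list's median difference was 0.18 against -0.02 over all genes. The adipocyte mean was 0.14 higher under restriction, averaged over wheel states. Its permutation p was 0.17 with labels exchanged within wheel states and 0.026 with labels exchanged within runs as well. In bulk tissue, fewer cells of a type and less RNA per cell cannot be told apart. Lep minus the adipocyte mean was -4.95 ± 1.31 in CR+EX, -5.02 ± 0.96 in CR, -3.85 ± 1.04 in AL+EX and -3.06 ± 1.14 in AL (SD). With that mean as a covariate, CR minus AL was -2.04 (adjusted p = 0.037) and CR+EX minus AL was -1.93 (adjusted p = 0.029) in limma. Over 37 arrays, Lep and the adipocyte mean had r = 0.34 (permutation p = 0.038, adjusted 0.11) and rho = 0.21 (permutation p = 0.22, adjusted 0.32). Without the 2 arrays farthest from the median r was 0.18, and within runs 1 to 4 it was 0.56, 0.19, 0.34 and -0.45. Within groups r was 0.45 in CR+EX, 0.88 in CR, 0.16 in AL+EX and 0.35 in AL, and with both measures centred on their group means it was 0.51 (rho = 0.38), values given with no p.

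Beside the 4.56% of all genes that were lower and the 4.19% that were higher, few markers of the other cell types listed passed. Those of luminal epithelium, the cells that line the ducts, had a list median of -0.36, with 2 of 11 lower and 0 higher: Cd24a at -0.71 ± 0.15 (adjusted p = 0.0024) and Wfdc2 at -0.67 ± 0.21 (adjusted p = 0.041). Cd163, a scavenger receptor of macrophages, was the 1 of 6 macrophage markers to pass, at 0.63 ± 0.19 (adjusted p = 0.029), and without the AL+EX animal 58 it was 0.54 (adjusted p = 0.051). With the 15 lymphoid-rich arrays left out Cd163 was 0.27 (adjusted p = 0.57). Wfdc2 lost its call in 21 of 37 fits that left out 1 animal, with adjusted p up to 0.070, and without run 3 the adjusted p was 0.20 for Cd24a and 0.52 for Wfdc2. The other marker lists (brown fat, basal epithelium, B and T lymphocytes, skeletal muscle, endothelium and skin) had 0 genes called in this contrast. Across the 37 arrays, though, the 7 brown fat markers had a median r with Lep of -0.39, from -0.60 to 0.26. Over all genes the median r was -0.01. The part of brown fat content in the Lep difference was not tested.

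Genes of leptin receptor signalling moved in both directions under restriction. Of 16 listed and tested, 2 rose and 3 fell, beside 4.19% and 4.56% of all genes tested, and the list's median difference was -0.12 against -0.02 over all genes. Lepr itself had means of 7.69 in CR+EX, 7.69 in CR, 7.62 in AL+EX and 7.76 in AL, a difference of 0.00 ± 0.12 (SE, adjusted p = 0.99). Jak2 (-0.13 ± 0.10, adjusted p = 0.46) and Stat3 (0.01 ± 0.11, adjusted p = 0.97) did not pass. Irs1, an adaptor that carries insulin receptor signals, rose by 0.53 ± 0.12 (adjusted p = 0.0054), and Pik3r1, a regulatory subunit of phosphoinositide 3-kinase, rose by 0.41 ± 0.11 (adjusted p = 0.016), where 1 of its 2 other probe sets had the opposite sign and did not pass. Stat5b, a transcription factor of cytokine receptors, fell by 0.38 ± 0.07 (adjusted p = 0.00067), and Ptpn1 fell by 0.49 ± 0.11 (adjusted p = 0.0043). Socs3, the feedback inhibitor, fell by 0.53 ± 0.17 (adjusted p = 0.047) and lost its call in 22 of 37 fits that left out 1 animal, with adjusted p up to 0.082. It also lost it under rescaling, with adjusted p of 0.11 after median centring and 0.10 after quantile normalization. Without run 3 none of these 5 passed, with adjusted p of 0.068 for Stat5b, 0.12 for Ptpn1, 0.22 for Irs1, 0.28 for Pik3r1 and 0.58 for Socs3.

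Of 11 regulators of Lep, 2 rose and 1 fell, beside 4.19% and 4.56% of all genes tested, and the list's median difference was 0.14. Cebpb, a CCAAT/enhancer binding protein, rose by 0.37 ± 0.11 (adjusted p = 0.033), and Nr3c1, the glucocorticoid receptor, rose by 0.26 ± 0.08 (adjusted p = 0.030). Sp1 fell by 0.66 ± 0.18 (adjusted p = 0.017), but its other probe set had the opposite sign and did not pass. Of members chosen after their values were seen, Cebpa had 0.35 ± 0.13 (adjusted p = 0.083), Pparg 0.21 ± 0.15 (adjusted p = 0.41) and Hif1a -0.36 ± 0.17 (adjusted p = 0.18). Nr3c1 was 0.23 without the CR animal 40 (adjusted p = 0.052). Cebpb lost its call when any 1 of 5 animals was left out, the CR+EX animal 70, the CR animal 62, 1 CR animal of run 4 or the AL+EX animals 56 and 58 (0.34 to 0.36, adjusted p of 0.050 to 0.053). Without run 3 Cebpb, Nr3c1 and Sp1 had adjusted p of 0.40, 0.28 and 0.23, and Cebpb was 0.24 without the 5 arrays of high Gapdh ratio (adjusted p = 0.17) and had an adjusted p of 0.069 after quantile normalization. Of 10 receptors for hormones of fat cells, 5 were tested and Nr3c1 was the 1 called.

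Other adipokines, proteins that fat cells secrete, were higher under restriction where they changed. Of 16 listed, 10 were tested, of which 4 rose and 0 fell, beside 4.19% and 4.56% of all genes tested, and the list's median difference was 0.26. Retn, which encodes resistin, rose by 0.64 ± 0.19 (adjusted p = 0.033), Rbp4, the carrier of retinol, by 0.49 ± 0.16 (adjusted p = 0.042), Angptl4, an inhibitor of lipoprotein lipase, by 0.39 ± 0.12 (adjusted p = 0.035), and Nampt, an enzyme of NAD synthesis, by 0.30 ± 0.08 (adjusted p = 0.013). Adipoq, which encodes adiponectin, had means of 14.2, 14.2, 13.9 and 14.2 in CR+EX, CR, AL+EX and AL (difference 0.14 ± 0.11, adjusted p = 0.46). Retn lost its call without the CR animals 64 or 66 or the CR+EX animals 68 or 70 (adjusted p of 0.052 to 0.054). Rbp4 lost it in 21 of 37 such fits (up to 0.072) and Angptl4 in 9 (up to 0.060). With the 15 lymphoid-rich arrays left out none of the 4 passed, at 0.45 for Retn (adjusted p = 0.053), 0.26 for Rbp4 (0.23), 0.24 for Angptl4 (0.22) and 0.27 for Nampt (0.095). Quantile normalization ended the calls of Retn (adjusted p = 0.067), Rbp4 (0.10) and Angptl4 (0.090), and the other probe set of Angptl4 had the opposite sign and did not pass. Without run 3 the adjusted p was 0.25 for Retn, 0.43 for Rbp4 and 0.25 for Angptl4. Nampt had 0.22 without run 4 (adjusted p = 0.088) and 0.27 without run 1 (adjusted p = 0.065). Of 22 other settings Nampt passed in 18, with adjusted p up to 0.16. With the adipocyte mean as a covariate Retn, Rbp4 and Angptl4 had adjusted p of 0.068, 0.088 and 0.072. Of 8 genes that mark growth of the fat pad, 6 were tested and 0 called, among them Mest (-0.10 ± 0.12, adjusted p = 0.69) and Sfrp5 (0.16 ± 0.20, adjusted p = 0.68). Nnat (-1.08 ± 0.49, adjusted p = 0.16) and Npr3 (-0.44 ± 0.33, adjusted p = 0.45) are also on that list. Over the 37 arrays the median r of its tested genes with Lep was 0.36, from -0.16 to 0.81, against -0.01 over all genes.

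**Figure D4:**
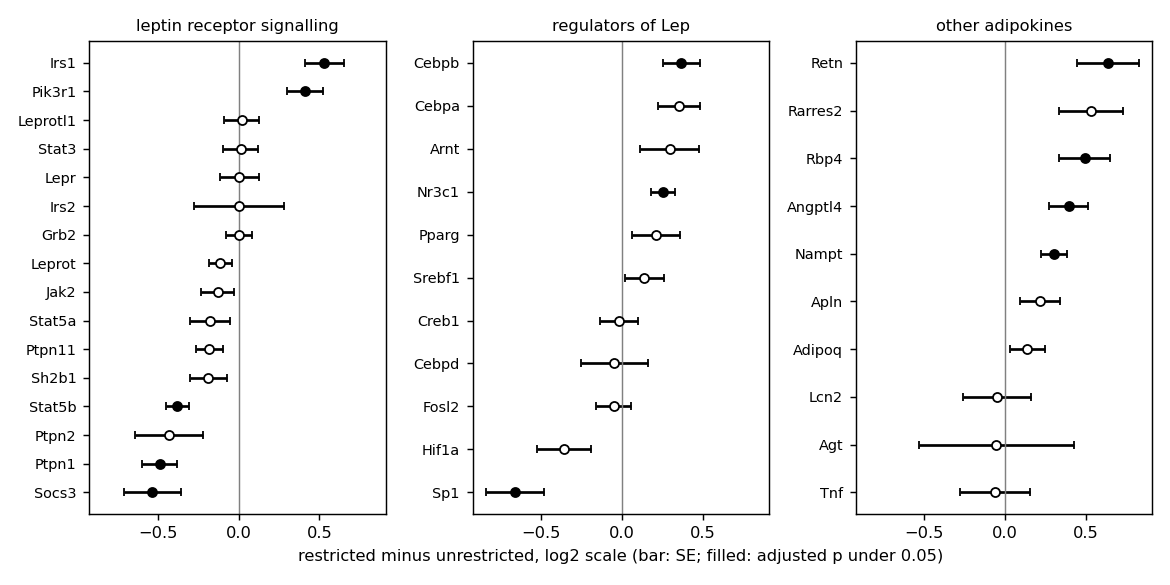
Difference of each tested gene of the leptin receptor signalling, regulator and other adipokine lists (restricted minus unrestricted, log2 scale, averaged over wheel states), with its standard error; filled points had an adjusted p under 0.05. Filled points lie on both sides of 0 in the first 2 panels and above 0 in the third.

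The genes whose pattern was most like that of Lep were found by Pearson's r over the 37 arrays, as a description with no p, among 9293 genes of which 35 had r above 0.6. The 10 highest were Nnat (0.81), Blcap (0.77), Npr3 (0.76), Rad51d (0.73), Sucnr1 (0.70), Cldn15 (0.70), Itih5 (0.69), Htra3 (0.69), Apcdd1 (0.68) and Palmd (0.67). Nnat encodes neuronatin, a small membrane protein, and Npr3 and Sucnr1 encode the clearance receptor for natriuretic peptides and the receptor for succinate. Nnat lies within an intron of Blcap. Nnat and Npr3 are among the genes listed above as marks of fat pad growth. The 5 lowest were Gadd45g (-0.72), Nfil3 (-0.66), Arntl (-0.65), Noct (-0.65) and Shisa2 (-0.64); Nfil3 and Arntl belong to the circadian clock.

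Differences between groups enter those values, so each gene was also centred on its group means. The 10 highest were then Aoc3 (0.81), Sucnr1 (0.80), Epb41l2 (0.80), Cldn15 (0.79), Nnat (0.78), Tspan17 (0.78), Crtac1 (0.77), Blcap (0.76), Npr3 (0.75) and Rad51d (0.75), and 6 genes stood in both lists. The 5 lowest were Dio2 (-0.74), Gadd45g (-0.70), Nifk (-0.68), Fanca (-0.67) and Dgka (-0.66). Dio2 is on the brown fat list. Centred on runs as well, r was 0.87 for Npr3, 0.85 for Sucnr1 and 0.74 for Nnat. Nnat had means of 8.27 ± 1.34 in CR+EX, 7.84 ± 1.37 in CR, 8.58 ± 1.90 in AL+EX and 9.70 ± 1.66 in AL (SD, log2 scale), a spread as wide as that of Lep, and its averaged restriction difference of -1.08 ± 0.49 did not pass (adjusted p = 0.16). Npr3 had -0.44 ± 0.33 (adjusted p = 0.45) and Sucnr1 0.03 ± 0.23 (adjusted p = 0.95). Nfil3, which rose by 1.19 ± 0.14 (adjusted p = 1.2e-06), had r = -0.50 once groups were centred. All genes of an animal come from 1 array, and the part of its RNA quality and cell content in these correlations was not tested.

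**Figure D5:**
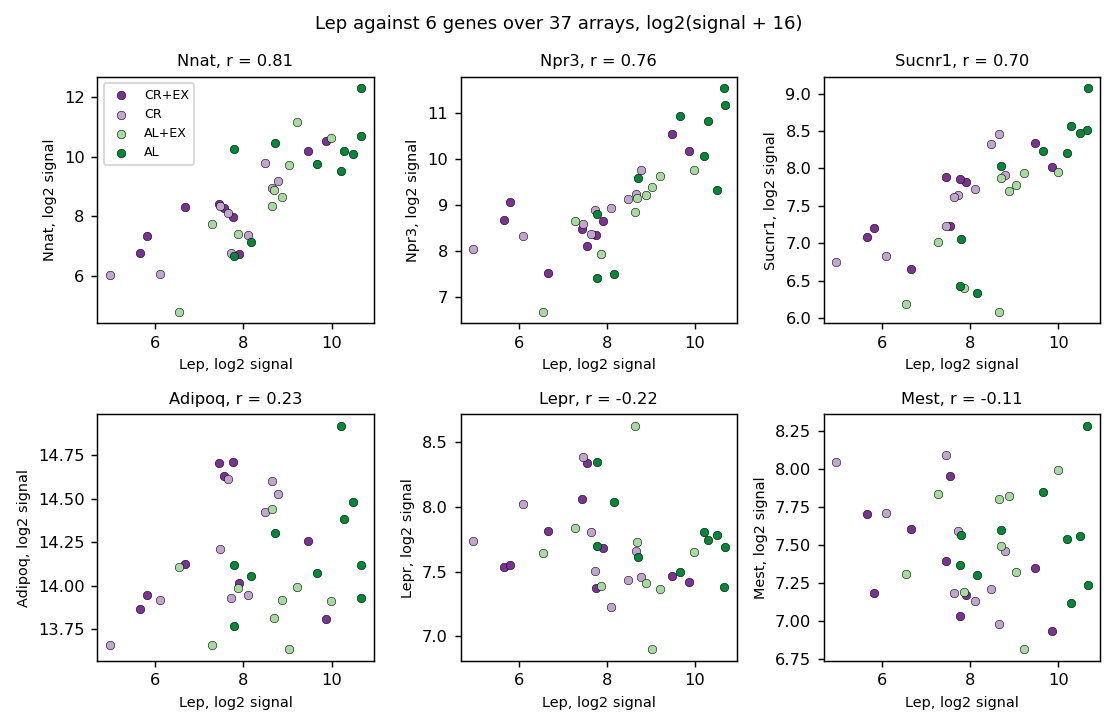
Lep (x axis) against 6 genes (y axes) on the log2(signal + 16) scale, 1 point per animal, coloured by group. Nnat, Npr3 and Sucnr1 rise with Lep (r = 0.81, 0.76 and 0.70) while Adipoq, Lepr and Mest have r of 0.23, -0.22 and -0.11.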

How the data were processed

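The deposited values were Affymetrix signal intensities on a linear scale, 1 per probe set and array; GCOS version 1 is named in the submitters' processing notes, and no label or header names the signal algorithm or a filter. The authors' scaling left a mean of 500.165 to 500.23 on every array after trimming 2% at each end, so none was added. Array data carry no counts, and the number of animals limits the precision. Values were used as log2(signal + 16). Of 22690 probe sets, 20380 named 1 gene by the platform's table (checked through Entrez IDs), 691 several and 1555 none, and 64 were controls. The brightest probe set stood for each of 12393 genes, and the dimmest 25% (mean under 6.71) were left out, which left 9294.

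limma 3.58.1 in R 4.3.3 fitted the 4 group means to 37 arrays (33 residual degrees of freedom; eBayes with trend). There were 9 contrasts, two-sided, adjusted by Benjamini and Hochberg over all genes within each, with a threshold of 0.05; the fit was tested on simulated data. Single values of Lep had exact permutation tests (92378 or 48620 regroupings). The gene, lists and tests were chosen with earlier results of these data known. Named were Lep, up to 4 risen and 4 fallen members per list, Lepr, Jak2, Stat3, Socs3, Adipoq, Retn, Mest and Sfrp5 whatever their p, and the 10 genes most and 5 least like Lep. Alternatives covered scaling, pseudocount, filters, run, covariates and arrays left out. Leaving out each run, the run block with the Gapdh ratio, leaving out arrays above either bound and the test by run were added after the data were seen. Promoters came from RefSeq; protein sequence was not used here.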

Additional observations from a re-analysis of the deposited data

Results flagged for a closer look

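The 3' to 5' ratio of the Gapdh control probe sets was 7.03 in the AL animal 4, far above the other 9 AL animals. It was the 1 value marked out of 16 sets of values (Lep, the adipocyte mean, their difference and the ratio, in 4 groups), where chance marks about 1 set in 20. Its Lep signal was 794.3, inside the AL range of 203.4 to 1613.2, and no Lep value was marked.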

How the results depend on the processing

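The averaged restriction difference of Lep, -1.39 over all arrays, lost its call when certain arrays were left out. It was -0.95 without the 5 arrays of high Gapdh ratio and -1.43 without the 15 lymphoid-rich ones. Without run 1 it was -0.82, without run 3 -1.66 and without the arrays above either bound -1.18. Each of these fits had fewer animals. So did the fit without run 2 (11 animals), which kept the call at -1.67 (limma adjusted p = 0.017). The part of the number of animals in the lost calls was not tested. CR minus AL passed with run as a block (-1.83) or random block (-1.84) and with the B lymphocyte (-2.04) or adipocyte mean (-2.04) as a covariate. CR+EX minus AL passed under the same 4 settings (-1.83, -1.84, -2.13 and -1.93) and without run 2 (-2.79). Leaving out 1 animal gave CR+EX minus AL values of -2.15 to -1.63, with 1 of 37 past the threshold. Without the 5 arrays of high Gapdh ratio CR+EX minus AL was -0.99 (limma adjusted p = 0.55) and CR minus AL was -1.54 (0.24). Without run 1 CR+EX minus AL was -1.16 (limma adjusted p = 0.34) and CR minus AL was -1.14 (0.29). CR+EX minus CR turned sign with run as a block (-0.0055), as a random block (-0.00015) or with the Gapdh ratio added (-0.19), with the B lymphocyte mean (-0.090) and without run 1 (-0.025) or run 2 (-0.62), and ran from -0.30 to 0.26 with 1 animal left out. The averaged wheel difference was 0.16 without run 3. The cause of these turns was not tested.

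Genes near 0 also turned. Lepr had -0.0054 with run as a block, -0.0034 as a random block, -0.039 with the ratio added, -0.013 with the Gapdh ratio, -0.015 with the adipocyte mean, -0.0055 with array weights and -0.037 without run 4, and ran from -0.040 to 0.068 with 1 animal left out. Stat3 had -0.0061 with the Gapdh ratio, -0.027 with the B lymphocyte mean, -0.0044 with the adipocyte mean, -0.030 with array weights, -0.060 without the 15 arrays, -0.096 without run 3, -0.028 without run 4 and -0.065 without arrays above either bound, and ran from -0.050 to 0.046. Mest had 0.0027 without run 2. None of these passed. The number of genes called in the averaged restriction contrast ran from 71 to 1743 over the settings, in CR minus AL from 0 to 573, in CR+EX minus AL+EX from 0 to 570, in CR+EX minus AL from 0 to 347 and in CR minus AL+EX from 0 to 753. No paired analysis was possible because the labels give no replicate numbers shared between groups.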
